A study of Homo sapiens with 18 samples.

Results

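PSCA and 9 further genes of the LY6/uPAR family were followed through 18 RNA-seq libraries of human pancreatic ductal adenocarcinoma (PDAC) cells. The 10 genes (PSCA, SLURP1, SLURP2, LY6D, LY6E, LY6K, LYPD2, LYPD3, LY6G6C and CD59) were taken by symbol from a table of 40266 symbols, and all 10 were found in it. The libraries came from 6 groups of 3 replicates. Parental Panc1, a line from a primary tumour used as a mesenchymal-like model, and parental Panc89, a line from a lymph node metastasis used as an epithelial model, were each compared with a Holoclone and a Paraclone line grown from single cells of the same line. Holoclone lines were chosen for compact colonies and Paraclone lines for scattered colonies, as models of stem-like and non-stem-like tumour cells. No group carried a treatment or a genetic change made for the study. Each clone line is 1 clone, and its replicates were passages of it, so that p-values measure the spread between passages and not between clones.

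PSCA and SLURP2 were selected on their measured levels in the Panc89 libraries, so their values in any contrast that holds a Panc89 library are given without a test. Each of the other 8 genes was tested in every contrast, and all 10 were tested between Panc1 groups. A gene counted as called when its adjusted p from limma was under 0.05 over 16093 genes with a level of 1 TPM or more in 3 or more libraries. TPM is a level corrected for library size and transcript length. All 10 genes entered that test, but PSCA, SLURP2, LY6D, LYPD2 and LY6G6C did so through Panc89 libraries alone and SLURP1 through the parental Panc89 libraries alone. Differences are on the log2(TPM + 1) scale, which understates the change of low genes, and read depth is unknown.

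LY6/uPAR proteins share a small, finger-like fold held by disulphide bonds. Most are tethered to the outer cell surface by a GPI lipid anchor, and a few are secreted. PSCA (prostate stem cell antigen) is a GPI-anchored surface protein of epithelia that is best known as a tumour antigen of prostate, bladder and pancreatic carcinomas. CD59 blocks the last step of the complement membrane attack complex, LY6E is an interferon-inducible surface protein that affects virus entry, and SLURP1 and SLURP2 are secreted ligands of nicotinic acetylcholine receptors.

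The line labels were checked with marker genes. A list of 4 mesenchymal markers (VIM, ZEB1, SPARC and CDH2) summed to 2050 to 5180 TPM in the Panc1 libraries and to 2.65 to 12.2 TPM in the Panc89 libraries, while 5 epithelial markers (EPCAM, CDH1, KRT8, KRT18 and KRT19) summed to 2590 to 5020 TPM in Panc1 and 2790 to 4090 TPM in Panc89. The epithelial sum is carried by the keratins, and CDH1 and EPCAM differed between the lines, with means of 1.35 and 11.2 TPM in parental Panc1 against 75.3 and 185 TPM in parental Panc89. CDH2 did not follow the mesenchymal sum, at a mean of 8.32 TPM in the Panc89 Holoclone and 1.38 TPM in the Panc1 Paraclone. Replicates of a group correlated with r of 0.954 to 0.992 across the tested genes (18 pairs). In bulk RNA, fewer cells that express a gene and less RNA of it per cell cannot be told apart.

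LYPD3 (chr19:43460787-43465608), LY6G6C (chr6:31718648-31721746) and CD59 (chr11:33703010-33736479) are the 3 members with a promoter in the RefSeq table used here, all on the minus strand, and LY6G6C overlaps MPIG6B on the opposite strand. The 250 bases upstream of their starts are shown for that reason. The sequences come from RefSeq (GRCh38.p14) and are written 5′ to 3′ on the minus strand, with any E-box in capitals. For CD59 the most upstream of 4 listed starts was used.
LYPD3: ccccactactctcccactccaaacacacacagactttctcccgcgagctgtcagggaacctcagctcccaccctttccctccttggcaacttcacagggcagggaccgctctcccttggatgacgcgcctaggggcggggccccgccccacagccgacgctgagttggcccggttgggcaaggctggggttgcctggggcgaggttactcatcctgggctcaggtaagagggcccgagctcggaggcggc
LY6G6C: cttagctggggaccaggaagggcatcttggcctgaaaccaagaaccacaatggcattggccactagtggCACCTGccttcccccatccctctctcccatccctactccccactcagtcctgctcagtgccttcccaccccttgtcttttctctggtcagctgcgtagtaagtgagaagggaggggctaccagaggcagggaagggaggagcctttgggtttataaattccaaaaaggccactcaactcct
CD59: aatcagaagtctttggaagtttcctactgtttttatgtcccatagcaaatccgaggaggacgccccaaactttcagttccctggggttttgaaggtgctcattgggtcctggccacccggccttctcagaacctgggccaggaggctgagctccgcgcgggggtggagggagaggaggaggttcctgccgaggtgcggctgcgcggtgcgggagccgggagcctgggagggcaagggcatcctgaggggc
The windows are chr19:43465609-43465858 for LYPD3, chr6:31721747-31721996 for LY6G6C and chr11:33736480-33736729 for CD59. Both strands were searched for the E-box CACCTG, the AP-1 motif TGANTCA and the interferon response motif (GAAA, any 2 bases, GAAA), which occur in 17.5%, 6.57% and 3.02% of 35116 promoters of the same length. LY6G6C held 1 E-box, and no other match was found in these 3 windows. G and C made up 66.4% of the LYPD3 window, 55.6% of the LY6G6C window and 62% of the CD59 window, against a median of 58% over all promoters.

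In the GENCODE 44 annotation of GRCh38, 7 of the 10 genes lie in a cluster on chromosome 8, in the order PSCA, LY6K, SLURP1, LYPD2, SLURP2, LY6D and LY6E. PSCA spans chr8:142670308-142682725 on the plus strand, and LY6E, at the far end, spans chr8:143017982-143023832 on the same strand. SLURP2 lies wholly inside the readthrough gene LYNX1-SLURP2 on the same strand over 5491 bp, so that its reads could be shared with that gene and its level is uncertain. PSCA overlaps JRK on the opposite strand over 11661 bp, and the strand setting used to count reads is not given in the sources used here. JRK held 4.03 to 19.7 TPM over the 18 libraries. LY6K, LY6E and LY6G6C also overlap a gene on the opposite strand, LNCOC1 over 3271 bp, LY6E-DT over 466 bp and MPIG6B over 3099 bp, and these partners held at most 1.42, 19.5 and 1.61 TPM.

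The leading gene of the family differed between the lines, while the summed level did not separate them. CD59 made up 84.4% of the summed TPM of the 10 genes in parental Panc1, 89.9% in its Holoclone and 84.2% in its Paraclone. In the Panc89 groups LY6E led, with 61.4% in parental cells, 52.5% in the Holoclone and 53.4% in the Paraclone. PSCA was second in parental Panc89 (22.8%) and in the Panc89 Paraclone (25.3%), while LY6D was second in the Panc89 Holoclone (24.4%), where PSCA made up 0.215%. The summed level was 1070 ± 152 TPM in parental Panc1, 979 ± 22.6 in its Holoclone and 2069 ± 45.5 in its Paraclone (SD, n = 3 each). It was 5998 ± 174 TPM in parental Panc89, 1285 ± 277 in its Holoclone and 4036 ± 1029 in its Paraclone (SD, n = 3 each). By library, the Panc89 Holoclone sums (1604, 1147 and 1105 TPM) overlapped with those of parental Panc1 (1240, 945 and 1025 TPM). They lay below all Panc1 Paraclone sums (2058, 2119 and 2030 TPM). PSCA and SLURP2 were selected on their Panc89 levels, so their part in the Panc89 sums is a description.

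**Figure D1:**
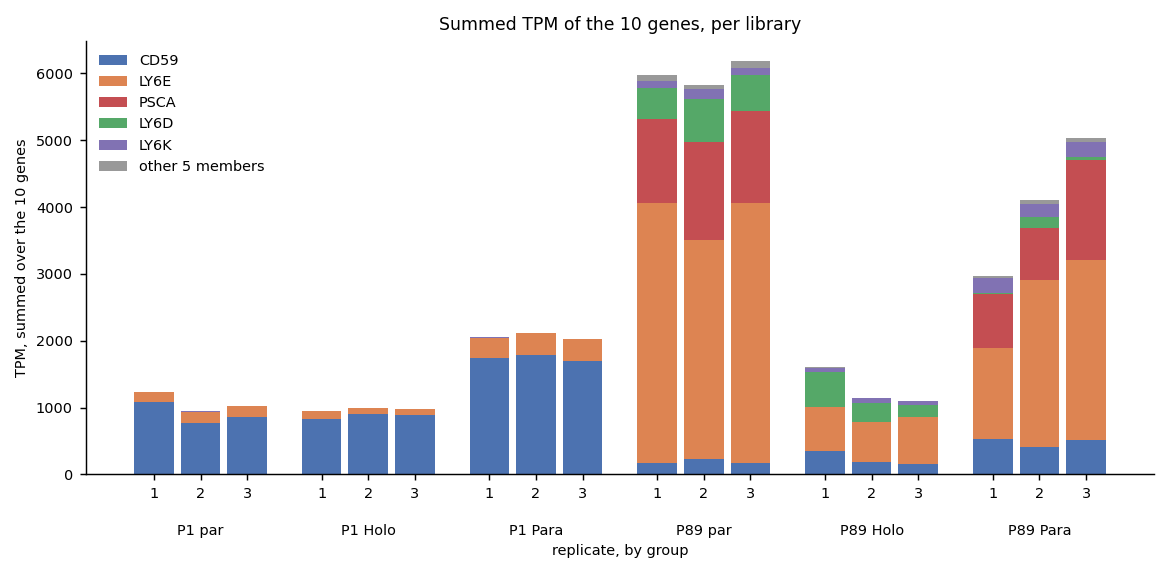
Stacked bars give the TPM of the 10 genes summed within each of the 18 libraries (vertical axis, TPM), by group and replicate, where par stands for parental and P1 and P89 for Panc1 and Panc89. The 3 parental Panc89 bars reach 5835 to 6182 TPM and hold mostly LY6E and PSCA, while the Panc1 bars hold mostly CD59.

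PSCA had the widest range of levels of the 10 genes on the log2 scale. It was selected on its Panc89 levels, so this rank is a description. The 3 parental Panc89 libraries held 1249, 1464 and 1375 TPM, and the 3 Panc89 Paraclone libraries 803, 788 and 1496 TPM. The Panc89 Holoclone libraries held 3.66, 2.48 and 2.23 TPM. All 9 Panc1 libraries were below 1 TPM, from 0 in Holoclone replicate 2 to 0.773 in parental replicate 2. Parental and Paraclone libraries of Panc89 overlapped, the Holoclone libraries stood below both, and all Panc1 libraries stood below the Panc89 Holoclone. On the log2 scale the means were 10.41 ± 0.12 in parental Panc89, 9.94 ± 0.53 in the Paraclone and 1.90 ± 0.28 in the Holoclone (SD, n = 3 each). The Holoclone mean therefore lay 8.04 below the Paraclone and 8.51 below the parental cells, and its TPM was 0.205% of the parental level against 75.5% for the Paraclone. In Panc1 the 3 group means were 0.50, 0.12 and 0.50 for parental, Holoclone and Paraclone cells. The Holoclone minus Paraclone difference in Panc1 was -0.38 ± 0.23 (SE) and did not pass the test (limma adjusted p = 0.210). With a pseudocount of 0.1 in place of 1 it was -1.49 and passed (limma adjusted p = 0.0131, the only one of its 14 alternatives to pass, in a range up to 1), at levels under 1 TPM.

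**Figure D2:**
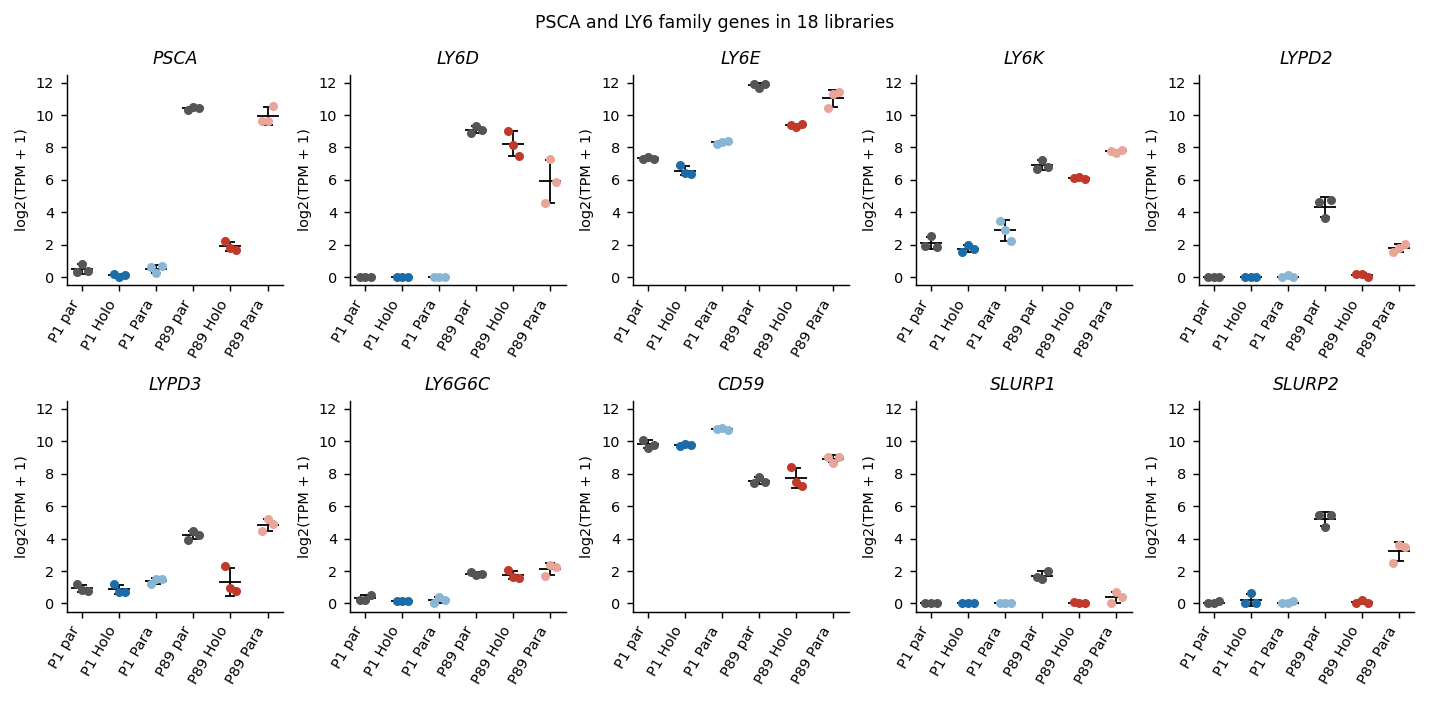
Each panel shows 1 gene, with log2(TPM + 1) on the vertical axis, a point for each of the 18 libraries, and the mean and SD of the 3 replicates of a group as horizontal lines. PSCA stands at or above 9.62 in parental Panc89 and Panc89 Paraclone libraries and between 1.69 and 2.22 in the Panc89 Holoclone, while LY6D is listed at 0 in every Panc1 library.

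SLURP1, SLURP2 and LYPD2, 3 neighbours within the cluster, were all highest in parental Panc89. SLURP2 was selected on its Panc89 levels and SLURP1 passed the filter on low values through parental Panc89 alone. The order of groups for these genes is therefore a description and not a shared result. SLURP2 held 42.4, 25.3 and 43.7 TPM in parental Panc89, 4.74, 11.3 and 10.1 TPM in the Panc89 Paraclone, and 0, 0.179 and 0 TPM in the Panc89 Holoclone. The 3 Panc89 groups did not overlap with each other. SLURP2 was listed at 0 in 6 of 9 Panc1 libraries and reached at most 0.537 TPM there, so that the Panc89 Holoclone overlapped with Panc1. LYPD2, a little-studied member, held 24.2, 11.5 and 26.0 TPM in parental Panc89, 1.90, 2.51 and 3.12 TPM in the Paraclone, and 0.141, 0.151 and 0 TPM in the Holoclone. It was listed at 0 in 8 of 9 Panc1 libraries. SLURP1 reached 2.11, 1.83 and 3.02 TPM in parental Panc89, stayed at or below 0.637 TPM in both Panc89 clones and was listed at 0 in all 9 Panc1 libraries.

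LY6D, a surface protein of squamous and other stratified epithelia, had another order in Panc89. Parental Panc89 held 475, 642 and 547 TPM and the Holoclone 519, 283 and 179 TPM. The Paraclone held 22.9, 155 and 56.7 TPM. Parental and Holoclone libraries overlapped, and the Paraclone libraries stood below both. All 9 Panc1 libraries were listed at 0.

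LY6E was the highest of the 10 genes in every Panc89 group. Parental Panc89 held 3895, 3288 and 3880 TPM, the Paraclone 1363, 2498 and 2686 TPM and the Holoclone 660, 603 and 705 TPM. The Panc1 groups followed with 300.3, 322 and 331 TPM in the Paraclone, 153, 168 and 157 TPM in parental cells and 118, 85.4 and 81.3 TPM in the Holoclone. No 2 neighbours in this order of the 6 groups overlapped.

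LY6K, known as a cancer-testis antigen, held 222, 204 and 227 TPM in the Panc89 Paraclone, 101, 152 and 110 TPM in parental Panc89 and 69.4, 72.2 and 66.5 TPM in the Panc89 Holoclone. These 3 groups did not overlap, and all stood above the Panc1 libraries, which ranged from 1.91 to 10.1 TPM. LYPD3 (C4.4A), a surface protein of squamous epithelium that binds AGR2 and AGR3, held 21.2, 36.5 and 28.5 TPM in the Panc89 Paraclone and 14.3, 21.2 and 17.97 TPM in parental Panc89. Its Panc89 Holoclone libraries held 4.06, 0.913 and 0.689 TPM and overlapped with the Panc1 Paraclone (1.26, 1.83 and 1.82 TPM). Replicate 1 of that Holoclone stood above its other replicates and above every Panc1 library.

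CD59 was higher in Panc1 than in Panc89 in all 3 line contrasts, while LY6E, LY6K and LYPD3 had higher means in Panc89. The remaining members passed the filter on low values through Panc89 alone, so CD59 is not set against them. The Panc1 Paraclone held 1746, 1788 and 1693 TPM, parental Panc1 1083, 771 and 863 TPM and the Panc1 Holoclone 835, 912 and 894 TPM. The Panc89 Paraclone followed with 533, 407 and 516 TPM, the Holoclone with 345, 182 and 149 TPM and parental Panc89 with 171, 227 and 177 TPM. Parental and Holoclone libraries overlapped within each line, and the Paraclone libraries stood above both. LY6G6C, which lies in the class III region of the major histocompatibility complex, was low throughout, at 1.99 to 4.17 TPM in Panc89 and 0 to 0.465 TPM in Panc1.

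To compare the lines, each Panc89 group was set against the Panc1 group of the same kind. Of the 8 tested genes, LY6D, LYPD2, LY6G6C and SLURP1 reached 1 TPM in no Panc1 library and passed the filter on low values through Panc89 alone. The filter thus favoured higher values in Panc89 for them, and their line contrasts are given only as the levels above. The other 4 reached 1 TPM in 3 or more Panc1 libraries. Between the parental lines all 4 were called, 3 higher in Panc89 and CD59 lower, where 66% of all tested genes were called (27.5% higher and 38.5% lower). LY6E was higher by 4.52 ± 0.20, LY6K by 4.80 ± 0.26 and LYPD3 by 3.30 ± 0.33 on the log2 scale (SE; limma adjusted p of 1.92e-11, 1.69e-10 and 2.83e-07). CD59 was lower by a log2 difference of -2.23 ± 0.23 (SE; limma adjusted p = 4.16e-07).

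Between the Holoclones 3 of these 4 genes were called, LY6E and LY6K higher in Panc89 (by 2.79 ± 0.20 and 4.39 ± 0.26, SE) and CD59 lower, where 65.8% of all tested genes were called (29.3% higher and 36.4% lower). LYPD3 differed by 0.47 ± 0.33 (SE) and did not pass (limma adjusted p = 0.218). Between the Paraclones all 4 were called, where 60.7% of all tested genes were called (30.2% higher and 30.4% lower). LY6E, LY6K and LYPD3 were higher in Panc89 there, by 2.72 ± 0.20, 4.89 ± 0.26 and 3.47 ± 0.33 (SE). CD59 had log2 differences of -2.05 and -1.85 in the Holoclone and Paraclone contrasts and so kept its direction in all 3.

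Within a line, the Holoclone was compared with the Paraclone to see how the family differed between the stem-like and non-stem-like models. In Panc1, 3 of 10 genes were called, and all 3 were lower in the Holoclone, where 37.3% of all tested genes were called (27.4% higher and 9.97% lower). These were LY6E with a log2 difference of -1.75 ± 0.20, LY6K with -1.13 ± 0.26 and CD59 with -0.99 ± 0.23 (SE; limma adjusted p of 6.83e-06, 0.00264 and 0.00323). The other 7 genes lay below 2 TPM in every library of both groups, and 6 of them below 1 TPM in all 9 Panc1 libraries. The median log2 difference over all tested genes was 0.19, and it moved to 0.0068 under upper quartile scaling.

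In Panc89, 6 of 8 genes were called, 5 lower and 1 higher in the Holoclone, where 35.7% of all tested genes were called (22.4% higher and 13.3% lower). LYPD3 had a log2 difference of -3.52 ± 0.33, LY6E -1.67 ± 0.20, LYPD2 -1.67 ± 0.22, LY6K -1.63 ± 0.26 and CD59 -1.19 ± 0.23 (SE; limma adjusted p of 7.72e-07, 1.07e-05, 3.01e-05, 1.40e-04 and 8.41e-04). LY6D was higher in the Holoclone, by 2.32 ± 0.47 (SE; limma adjusted p = 0.00122), and this value ranged from 1.66 without Paraclone replicate 1 to 3.01 without Paraclone replicate 2. When the Holoclone and Paraclone libraries were fitted alone, LY6D and CD59 missed the threshold (limma adjusted p of 0.0826 and 0.0544). These are the highest of their 14 alternatives, and the lowest were 1.39e-05 and 4.83e-06. LY6G6C differed by -0.37 ± 0.18 and SLURP1 by -0.33 ± 0.16 (SE), and neither passed (limma adjusted p of 0.129 for each). Without Paraclone replicate 1 both passed (limma adjusted p of 0.0201 and 0.0191), and LY6G6C also passed without Holoclone replicate 1 (0.0417). Over all alternatives the adjusted p ranged from 0.0201 to 1 for LY6G6C and from 0.0191 to 1 for SLURP1. PSCA and SLURP2, given without a test, differed by -8.04 and -3.13. The median over the 8 tested genes was -1.41, against 0.09 over all genes.

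**Figure D3:**
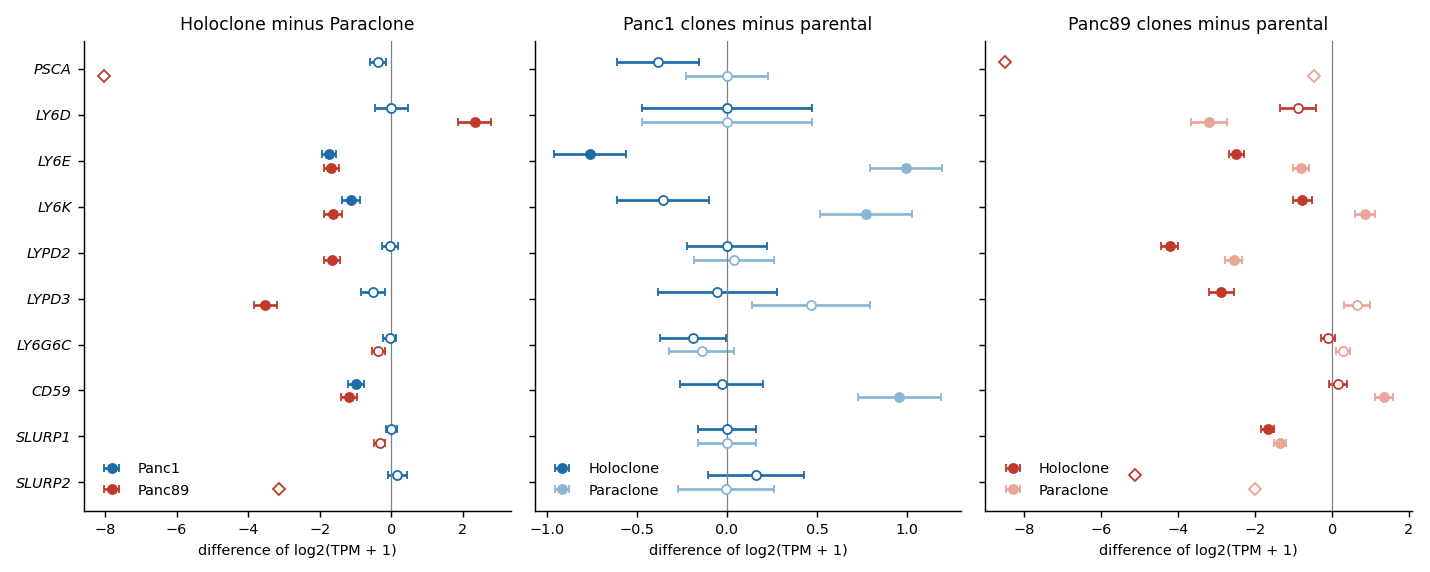
Points give differences of log2(TPM + 1) for each gene between Holoclone and Paraclone (left), between the Panc1 clones and parental Panc1 (middle) and between the Panc89 clones and parental Panc89 (right), with bars for the SE. Filled points passed the test, open points did not, and open diamonds are values given without a test; SLURP1 in the right panel passed the filter through the parental libraries alone. LY6E, LY6K and CD59 lie below 0 in both lines in the left panel, and the horizontal scales differ between panels.

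LY6E, LY6K and CD59 thus passed the test in the same direction in both lines, and the difference between the lines in their Holoclone minus Paraclone values did not pass for any of them. That difference (Panc89 minus Panc1) was 0.08 ± 0.28 for LY6E, -0.50 ± 0.36 for LY6K and -0.20 ± 0.33 for CD59 (SE; limma adjusted p of 0.863, 0.308 and 0.675). It was called for 3 of the 8 genes, 1 positive and 2 negative, where 35.1% of all tested genes were called (14.8% positive and 20.4% negative). LYPD3 differed between the lines by -3.00 ± 0.46 (SE; limma adjusted p = 1.37e-04). Its Panc1 means were low, at 0.87 in the Holoclone and 1.39 in the Paraclone on the log2 scale. A Panc1 difference as large as that in Panc89 could therefore not occur on this scale. The called values of LYPD2 (-1.63) and LY6D (2.32) restate their Panc89 differences, since both genes were at or near 0 throughout Panc1, and are no separate support.

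The clones were then compared with the parental cells of their line, and both comparisons of a line share the same parental libraries. In Panc1 the Holoclone had 1 of 10 genes called, where 10.9% of all tested genes were called (5.87% higher and 5.06% lower). This was LY6E, lower by a log2 difference of -0.76 ± 0.20 (SE; limma adjusted p = 0.0229). The call was lost on leaving out any parental replicate (adjusted p of 0.0501, 0.0725 and 0.0564 for replicates 1, 2 and 3) or Holoclone replicate 2 or 3 (0.0765 and 0.112). Over its 14 alternatives the limma adjusted p ranged from 0.0125 to 1, the highest being for a required log2 difference over 1. The Panc1 Paraclone had 3 of 10 genes called, all higher, where 28.6% of all tested genes were called (7.31% higher and 21.3% lower). They were LY6E (0.99 ± 0.20), CD59 (0.96 ± 0.23) and LY6K (0.77 ± 0.26) on the log2 scale (SE; limma adjusted p of 0.00179, 0.00584 and 0.0338). The LY6K call was lost without parental replicate 1 or 3 or Paraclone replicate 1 or 2 (limma adjusted p of 0.115, 0.124, 0.158 and 0.0902, within 0.00349 to 1 over its 14 alternatives), and its value was 0.47 without Paraclone replicate 1. The 6 genes below 1 TPM in every Panc1 library passed in neither contrast. With a pseudocount of 0.1, PSCA passed in the Holoclone contrast (-1.49, limma adjusted p = 0.0392), the only one of its 14 alternatives there to pass.

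In Panc89 the parental cells lay above both clones for 6 of the 10 genes by their means, between them for 3 and below both for CD59. Those 6 were PSCA, SLURP1, SLURP2, LY6D, LY6E and LYPD2. Over all tested genes, 22.3% had a parental mean above both clones and 31.1% below both. Every parental Panc89 library stood above all 6 clone libraries for SLURP1, SLURP2, LYPD2 and LY6E, as for 4.54% of all tested genes. SLURP1 passed the filter on low values only through parental Panc89, and PSCA and SLURP2 were selected on their Panc89 levels. Their places in both counts are therefore not read. This leaves LY6D, LY6E and LYPD2 above both clones by their means, and LYPD2 and LY6E with every parental library above all clone libraries. In Panc1 the parental mean lay above both clones for 2 genes (PSCA and LY6G6C, both under 1 TPM). For the other 8 it lay at or between the clone means. Of all tested genes, 32.3% had a parental Panc1 mean above both Panc1 clones and 17.1% below both. SLURP1, SLURP2, LY6D and LYPD2, among those 8, also stayed under 1 TPM in every Panc1 library. The Panc1 positions of all these genes under 1 TPM are not read.

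SLURP1 is left out of the counts against parental Panc89, since those libraries alone carried it past the filter. Its log2 differences of -1.68 in the Holoclone and -1.35 in the Paraclone are a description. Of the other 7 tested genes the Panc89 Holoclone had 4 called against parental cells, all lower, where 24.7% of all tested genes were called (16.1% higher and 8.61% lower). LYPD2 had a log2 difference of -4.22 ± 0.22, LYPD3 -2.88 ± 0.33 and LY6E -2.49 ± 0.20 (SE; limma adjusted p of 2.73e-09, 1.12e-05 and 3.23e-07). LY6K had -0.77 ± 0.26 (SE; limma adjusted p = 0.0384), a call lost without parental replicate 2 or 3 (0.161 and 0.0661) or any Holoclone replicate (0.0680, 0.0772 and 0.0977), within 0.00888 to 1 over its 14 alternatives. CD59 (0.15), LY6D (-0.88) and LY6G6C (-0.10) did not pass (limma adjusted p of 0.710, 0.198 and 0.776). PSCA and SLURP2 differed by -8.51 and -5.13, with no test. The median over the 7 genes was -0.88, against 0.08 over all genes.

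The Panc89 Paraclone had 5 of these 7 genes called against parental cells, 2 higher and 3 lower, where 19.4% of all tested genes were called (9.37% higher and 10% lower). CD59 and LY6K were higher by 1.34 ± 0.23 and 0.86 ± 0.26 (SE; limma adjusted p of 6.53e-04 and 0.0266). LY6D had a log2 difference of -3.20 ± 0.47, LYPD2 -2.55 ± 0.22 and LY6E -0.81 ± 0.20 (SE; limma adjusted p of 1.78e-04, 1.15e-06 and 0.00925). The LY6E value was -0.50 without Paraclone replicate 1, and its call was lost when the 9 Panc89 libraries or the groups compared were fitted alone (limma adjusted p of 0.0688 and 0.129, within 0.0045 to 1 over its 14 alternatives). The LY6K call was lost without parental replicate 1 or 3 or Paraclone replicate 1 or 3 (limma adjusted p of 0.113, 0.0944, 0.0762 and 0.0803, within 0.00813 to 1). LYPD3 (0.64) and LY6G6C (0.27) did not pass (limma adjusted p of 0.200 and 0.338). PSCA and SLURP2 differed by -0.47 and -2.005, with no test, and the median of the 7 genes was 0.27 against -0.02 over all genes.

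As a share of the parental Panc89 level in TPM, the Holoclone and the Paraclone lay apart for several genes. The Holoclone had 59% of parental LY6D and 57.4% of LY6K, but 17.8% of LY6E, 10.6% of LYPD3, 0.474% of LYPD2 and 0.16% of SLURP2. The LYPD3 share was 4.49% without Holoclone replicate 1, and the SLURP2 share rests on 1 library, since the other Holoclone libraries were listed at 0. The Paraclone had 14.1% of parental LY6D, 59.2% of LY6E, 23.5% of SLURP2 and 12.2% of LYPD2. The LY6D share was 7.18% without Paraclone replicate 2. The Paraclone stood above the parental level for LY6K (180%), LYPD3 (161%) and CD59 (254%).

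Some markers of other cell types were also higher in parental Panc89 than in its Holoclone, while the haematopoietic sum of the Paraclone overlapped with that of parental cells. Of 2 endothelial markers, PECAM1 held 64.7, 53.1 and 62.5 TPM in parental Panc89, 1.92, 6.90 and 4.80 TPM in the Paraclone and 1.25, 0.752 and 0.565 TPM in the Holoclone, while VWF stayed at or below 0.355 TPM in Panc89. The summed level of both was 53.2 to 64.8 TPM in parental Panc89, 1.98 to 7.0 in the Paraclone and 0.665 to 1.6 in the Holoclone. The summed level of 3 haematopoietic markers was 3.82 to 5.13 TPM in parental Panc89, 2.28 to 5.07 in the Paraclone and 0.268 to 0.569 in the Holoclone, most of it CD14 in the first 2 groups, where CD3E was listed at 0 in every library. Their part in the results was not tested.

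The genes next to the cluster were examined because 7 of the 10 genes share it. Within 250 kb of a member on chromosome 8, 10 further genes were tested. Against parental Panc89, the Holoclone had 8 of these 10 called lower and none higher, where 8.61% of all tested genes were lower and 16.1% higher, with a median log2 difference of -1.41. Of the 10, JRK, LY6E-DT and LYNX1-SLURP2 overlap members, and LYNX1 lies wholly within LYNX1-SLURP2 (6614 bp), so that reads may be shared among them. Without these 4, the Holoclone had 4 of 6 neighbours called lower and the Paraclone 2 of 6. Among all 10 neighbours, the largest Holoclone differences were -2.58 for LYNX1, -2.07 for LINC02904, -1.83 for LY6E-DT and -1.73 for THEM6. LYNX1 is a membrane-tethered modulator of nicotinic receptors. The Paraclone had 5 of 10 called lower and none higher (10% lower and 9.37% higher over all tested genes), led by LYNX1 (-2.46), LYNX1-SLURP2 (-1.36), LINC02904 (-1.20) and LY6E-DT (-1.08). In Panc1 none of the 10 was called in the Holoclone against parental cells, where 10.9% of all tested genes were called. In the Panc1 Paraclone 1 was higher and 4 were lower, where 7.31% of all tested genes were higher and 21.3% lower. Around the other members, the Panc89 Holoclone against parental contrast called 3 genes higher and 3 lower of 42 on chromosome 6, 1 higher of 4 on chromosome 11 and 3 lower of 10 on chromosome 19.

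**Figure D4:**
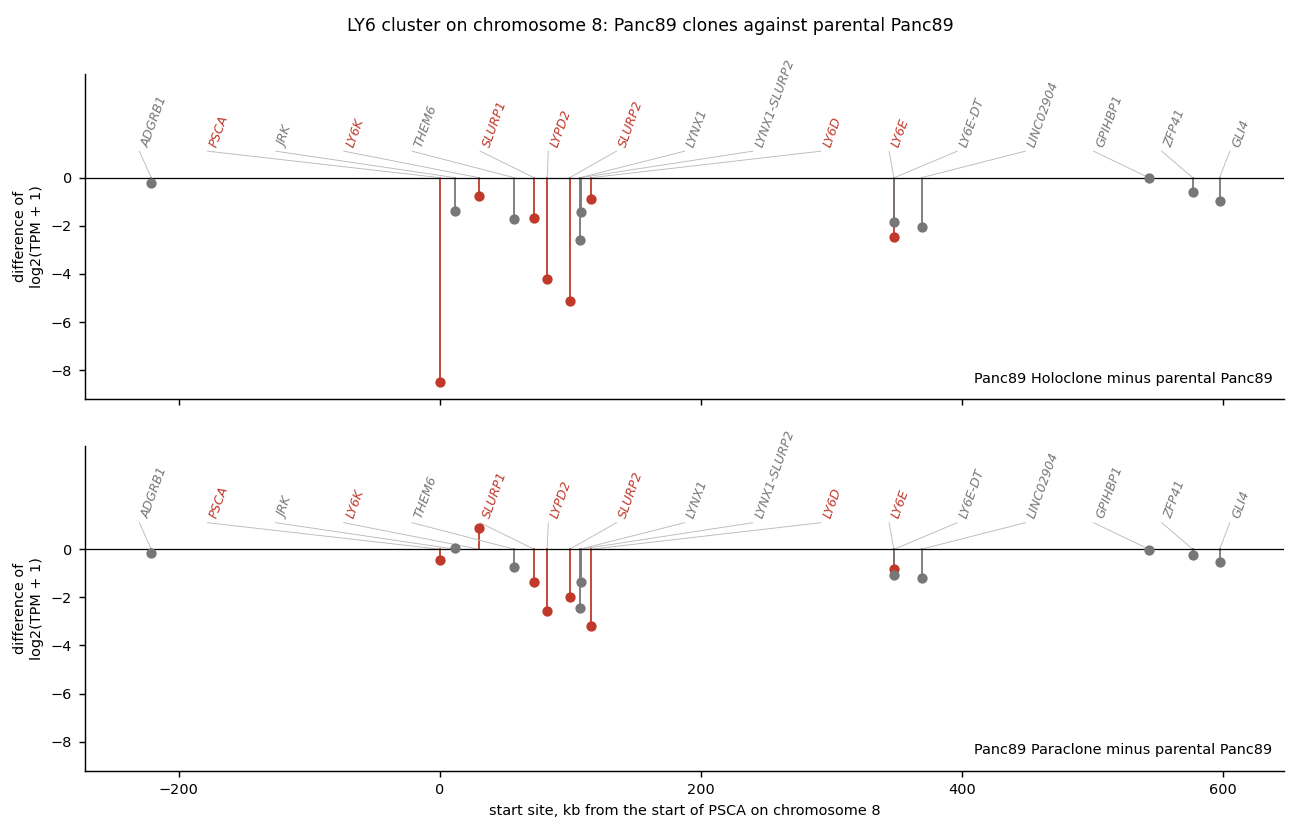
Stems give the difference of log2(TPM + 1) between the Panc89 Holoclone (top) or Paraclone (bottom) and parental Panc89 for the 7 members on chromosome 8 (red) and 10 neighbouring tested genes (grey), at their start sites in kb from the start of PSCA. In the top panel all 7 members lie below 0, from -8.51 for PSCA to -0.77 for LY6K, and in the bottom panel LY6K lies above 0 at 0.86. PSCA and SLURP2 were selected on their Panc89 levels and SLURP1 passed the filter through parental Panc89 alone, so their directions are a description. LY6D in the top panel (-0.88) did not pass the test.

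Among the other LY6/uPAR genes, 24 of 25 listed were in the table and 10 were tested. PLAUR, the urokinase receptor, was highest in the Paraclone of each line, as LY6K was. It held 13.2, 10.7 and 10.6 TPM in parental Panc1, 11.1, 5.93 and 8.42 TPM in its Holoclone and 38.8, 33.0 and 23.99 TPM in its Paraclone. In Panc89 it held 98.7, 129 and 91.8 TPM in parental cells, 116, 89.5 and 120.2 TPM in the Holoclone and 225, 237 and 208 TPM in the Paraclone. PLAUR was called lower in the Holoclone than in the Paraclone in Panc1 (-1.81) and in Panc89 (-1.04). LYPD6B, LYPD1 and LYPD5 differed in the other direction in Panc89, with the Holoclone higher by 3.15, 2.03 and 1.72 on the log2 scale. In that contrast 4 of the 10 were called higher and 1 lower (22.4% and 13.3% over all tested genes), with a median of 0.10. LYPD1 reached 1 TPM in the Panc89 Holoclone libraries alone and passed the filter on low values through them. Its value is therefore a description, and its place in that count is not read.

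The partners of the secreted and surface members were looked up as lists. Of 16 nicotinic acetylcholine receptor subunits 6 were tested. CHRNA9 held 7.93, 9.67 and 8.93 TPM in parental Panc89 and 17.1, 2.32 and 15.3 TPM in the Paraclone. Its Panc89 Holoclone libraries held 0.232, 0.0135 and 0.116 TPM. CHRNA9 was the only one of the 6 subunits called between Panc89 Holoclone and Paraclone (-3.15). There, 35.7% of all tested genes were called (22.4% higher and 13.3% lower). CHRNA5 (-2.41) and CHRNB1 (-2.50) were lower in parental Panc89 than in parental Panc1, and 1 of the 6 was higher and 4 lower in that contrast (27.5% and 38.5% over all tested genes). CHRNA9 passed the filter on low values through Panc89 alone and CHRNA7 through Panc1 alone, so their places in that count are not read. In the Panc1 Holoclone 4 of the 6 subunits were called higher than in the Panc1 Paraclone, led by CHRNA4 (1.54), where 27.4% of all tested genes were higher. AGR2, a binding partner of LYPD3, held 271, 426 and 621 TPM in the Panc89 Holoclone and 4.05, 10.8 and 15.7 TPM in the Panc89 Paraclone (5.38, the opposite direction to LYPD3). AGR3 did not pass the filter on low values.

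Of the membrane regulators of complement beside CD59, CD46, CD55 and CSMD1 were tested of 4. All 3 were called higher in Panc89 in each line contrast, where 27.5% to 30.2% of all tested genes were, the opposite direction to CD59. CSMD1 passed the filter on low values through Panc89 alone, so its calls are not read, which leaves CD46 and CD55. CD55, which speeds the decay of complement convertases, held 453, 806 and 442 TPM in parental Panc89 and 52.3, 43.3 and 59.9 TPM in parental Panc1. CD55 was called lower in the Holoclone than in the Paraclone in both lines (-2.94 in Panc1 and -0.81 in Panc89), as CD59 was.

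LY6E was read beside interferon-stimulated genes. The list holds 16 symbols, of which DDX58 and RIGI name the same gene, and the 15 genes were all tested. All 15 were higher in parental Panc89 than in parental Panc1, where 27.5% of all tested genes were, with a median log2 difference of 5.18 beside 4.52 for LY6E. Among them IFI44L passed the filter on low values through Panc89 alone, so its place in this count is not read. In the Panc89 Holoclone 8 of 15 were lower than in parental cells and none higher, where 8.61% of all tested genes were lower (median -1.34). IFI27 held 1712, 672 and 1532 TPM in parental Panc89, 41.0, 146 and 509 TPM in the Holoclone and 1107, 1446 and 1847 TPM in the Paraclone. Its Holoclone replicates spread more widely than those of LY6E. Between the Panc89 Holoclone and Paraclone 4 of 15 were called lower, where 13.3% of all tested genes were, namely IFI27 (-3.29), IFI6 (-2.81), IFITM1 (-1.77) and IFI44L (-1.32). In Panc1 the same contrast called 1 higher and 2 lower, where 27.4% of all tested genes were higher and 9.97% lower, and LY6E was lower there.

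To place each pattern among the tested genes, the 6 group means of log2(TPM + 1) were centred within a gene, and the root mean square difference to each member was taken over the 6 groups. The nearest genes to PSCA were KRT81 (1.11), a hair keratin, PI3 (1.41), an epithelial elastase inhibitor, DMBT1 (1.71), S100A9 (1.83) and IFI27 (1.83). Group means of KRT81 were 9.29 in parental Panc89, 9.90 in the Paraclone and 0.22 in the Holoclone on the log2 scale, and 0.85 to 1.81 in Panc1. No other member was close to PSCA, since the nearest, SLURP2, ranked 62 with 2.60. LYPD2 and SLURP2 lay close to each other at 0.54, where SLURP2 ranked 12 for LYPD2 and LYPD2 ranked 5 for SLURP2, and MUC5B, a gel-forming mucin, was among the nearest 3 genes of both (0.29 and 0.38). For LY6E the nearest were NR4A2 (0.27), CFB (0.30) and NDRG1 (0.50), and for LYPD3 LEMD1 (0.17), NFE2 (0.21) and PDZK1IP1 (0.21). For LY6K they were MISP (0.32), LIMCH1 (0.32) and MILR1 (0.34), and for CD59 DNASE1L1 (0.12), EHD1 (0.21) and ACTN4 (0.23). For the low genes SLURP1 and LY6G6C the nearest were LINC02289 and APOBEC3H (both 0.08). These values describe 6 means that share their libraries and are not tests.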

How the data were processed

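RNA was measured by RNA-seq in 18 cultures. The authors quantified reads with kallisto (version 0.46.1, per the submitters' processing notes) against an Ensembl annotation of GRCh38, summed transcripts to genes with tximport and deposited a table of scaled TPM on a log2 scale, found from the values to be log2(TPM + 1). Its columns sum to 985339 to 988066 TPM after back-transformation, so read depth is unknown and no counting interval is given. The 16093 genes at 1 TPM or more in 3 or more libraries were fitted with limma 3.58.1 (lmFit and eBayes with trend, R 4.3.3), using 6 group means, and p-values were adjusted by Benjamini-Hochberg over all genes in each of 10 contrasts, with 0.05 as the threshold. TPM is given as the mean ± SD of 3 replicates. The 10 members, the gene lists and the neighbour window of 250 kb were chosen with earlier results of these data known. Named from each list were at most the 4 genes with the largest called differences in a contrast, and as nearest genes 5 for PSCA and up to 3 for the others (those of LY6D are not reported here). AGR3, the overlapping genes and the marker genes fall outside that rule. Alternatives were a pseudocount of 0.1, no filter, other scalings, separate fits, a replicate block, a stricter call and leaving out each library.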

Additional observations from a re-analysis of the deposited data

Results flagged for a closer look

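The Holoclone minus Paraclone difference of 3 genes differed between the lines by limma's test of that difference (Panc89 minus Panc1, on the log2 scale). For LYPD3 the value was -3.00 (limma adjusted p = 1.37e-04). All 3 Panc89 Holoclone libraries lay below all 3 Paraclone libraries, and the Panc1 difference was -0.52. The Panc1 Paraclone mean of LYPD3 was 1.39 on the log2 scale, which limits how far the Panc1 difference could fall. For LYPD2 (-1.63, adjusted p = 8.42e-04) and LY6D (2.32, adjusted p = 0.0134) the Panc1 libraries were at or near 0 in both clones, so that these values restate the Panc89 differences and are no separate support. No explanation was tested for any of these values.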

How the results depend on the processing

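The number of members called, here over all tested members, those that passed the filter through 1 line or group alone included, was within 1.5 times its reported value in 73 of 76 other settings that kept all libraries. The exceptions concern Panc1 clones against parental Panc1. For the Holoclone (1 called) a pseudocount of 0.1 gave 2, with PSCA added, and a required log2 difference over 1 gave 0. For the Paraclone (3 called) the latter gave 0. Leaving out 1 library at a time gave 0 to 1 and 2 to 3 members in these contrasts, 4 to 5 and 5 to 6 for the Panc89 Holoclone and Paraclone against parental cells, 3 to 3 and 6 to 8 for Holoclone against Paraclone in Panc1 and Panc89, 8 to 8, 5 to 5 and 7 to 8 for the parental, Holoclone and Paraclone line contrasts, and 3 to 3 for the difference between lines.

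Directions reversed for differences near 0. PSCA in the Panc1 Paraclone against parental cells (-0.0007) was 0.0012 with a pseudocount of 0.1, 0.0531 with upper quartile scaling and 0.0642 with median-of-ratios scaling, and -0.0901 to 0.1632 without 1 library. SLURP2 there (-0.0049) was 0.0004 with both scalings and -0.0447 to 0.0398 without 1 library. Without 1 library the ranges also crossed 0 in the Panc1 Holoclone against parental cells for CD59 (-0.1365 to 0.1082), LYPD3 (-0.2172 to 0.0772) and SLURP2 (-0.0447 to 0.2655), and between the Holoclones for LYPD3 (-0.0234 to 0.7678) and SLURP2 (-0.2311 to 0.0791). They crossed 0 in Panc1 Holoclone against Paraclone for LY6G6C (-0.1452 to 0.0425) and SLURP2 (-0.0398 to 0.2703), in the Panc89 Holoclone against parental cells for CD59 (-0.2016 to 0.4003), and in the difference between lines for CD59 (-0.5557 to 0.0463) and LY6E (-0.2319 to 0.2571).

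Over all genes, a required log2 difference over 1 left 6020, 5996 and 5271 genes in the parental, Holoclone and Paraclone line contrasts (from 10623, 10583 and 9767), 1860 and 2124 in Holoclone against Paraclone in Panc1 and Panc89 (from 6006 and 5746), 516 and 1279 in the Panc1 clones against parental cells (from 1759 and 4599), 1369 and 1184 in the Panc89 clones (from 3981 and 3120) and 3292 for the difference between lines (from 5655). Fitting Panc89 Holoclone and Paraclone alone called 3377. Leaving out Panc1 Holoclone replicate 3 called 1061 in the Holoclone against parental Panc1. The fit of 1 line alone was chosen after seeing the data and gave 3, 6, 1, 2, 5 and 5 members for the 2 Holoclone against Paraclone contrasts and the Panc1 and Panc89 clones against parental cells.

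With a replicate block, the counts of members were 8, 5 and 7 for the line contrasts, 3 and 6 for Holoclone against Paraclone, 1, 3, 5 and 6 for the clones against parental cells and 3 for the difference between lines, as without it. Samples with the same number did not deviate together (18 pairs, r of -0.318 to 0.1904, with 3 over 0.1), so the number does not pair them. Read depth is unknown, and for genes at or near 0 a low level and absence could not be told apart.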
